A study of Mus musculus with 8 samples.

Results

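The genes described are 9 members of the Bcl2 family that were picked by symbol from the 32285 genes of the count matrices: Bcl2, Mcl1, Bcl2a1b, Bcl2a1d, Bak1, Bcl2l11, Pmaip1, Bid and Bmf. All 9 symbols were found, and their counts were followed in B and T cell subsets of the mouse spleen by genotype and by sort. The study deleted Eif3e, a subunit of the translation initiation factor eIF3, in activated B cells and measured single-cell RNA in 8 droplet libraries. The cKO mice carried Eif3e fl/fl, Cγ1Cre and the Rosa26-YFP LSL reporter, and the controls carried Cγ1Cre and the reporter without the floxed Eif3e. Both genotypes therefore expressed Cre, on the C57BL/6J background, and all mice were 2 months old. From each genotype, 2 libraries held total splenocytes and 2 held sorted YFP+ cells, and each library pooled 2 or 3 mice, so a library is a pool and not an animal. The Cre is expressed from the immunoglobulin γ1 locus, so YFP marks B cells that were activated at some time, and T cells are not a target of the deletion. Replicate numbers are the batch numbers of the labels, and total and YFP+ libraries of 1 batch and genotype came from the same pooled mice.

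The Bcl2 family decides whether the outer membrane of the mitochondrion is breached, the step that commits a cell to intrinsic apoptosis. Anti-apoptotic members (Bcl2, Mcl1 and the A1 proteins of the Bcl2a1 genes) hold the effectors Bak and Bax in check, and BH3-only members (Bim from Bcl2l11, Noxa from Pmaip1, Bid and Bmf) bind the anti-apoptotic members or activate the effectors. Follicular B cells and resting T cells rely on Bcl2, germinal centre B cells are known for low Bcl2 and a need for Mcl1, and Bim is a main killer of lymphocytes that lose survival signals.

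Libraries held 71894780 to 105224903 UMIs over all barcodes before filtering. After it, 9276 to 11652 cells were left, with medians of 5250 to 6811 UMIs per cell. Cell classes were rebuilt from clusters and every class name is read as "like". Eif3e, counted at the 3′ end of its transcripts and so perhaps outside the deleted part, was lower in cKO only in part of the classes: YFP+ pre-GCB-like cells stood at 272 and 289.6 CPM in control and 164 and 166 CPM in cKO libraries (batch 1 and batch 2, the order used throughout). In YFP+ naive B-like cells it was 206 and 262 CPM in control and 291 and 367 CPM in cKO, and in YFP+ GCB-like cells 266 and 297 and 267 and 305 CPM. The counts of these cells thus do not show a loss of Eif3e message in naive B-like or GCB-like cells, and each difference given for them below rests on the labels. CPM are UMIs of a gene per 1000000 UMIs, in all cells of a class summed in 1 library. Fewer cells expressing a gene and less RNA of it per cell cannot be told apart in such sums.

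Of all UMIs in the cells kept, Mcl1 took 144199, Bcl2 129160, Bcl2a1b 117516, Bcl2a1d 53936, Bcl2l11 50527, Bak1 25162, Bid 21682, Pmaip1 19277 and Bmf 3434. Of the members whose windows are printed, chr2:128126038-128162547 (Bcl2l11) and chr2:118528757-118549687 (Bmf) lie on chromosome 2, and chr9:89199209-89207827 (Bcl2a1b) and chr9:88723285-88731914 (Bcl2a1d) on chromosome 9, all protein-coding genes. Bmf is the shallowest member by a wide margin, and its values in small classes rest on few counts. The 2 A1 genes are near-identical copies: 51.7% of the 60-base windows of the Bcl2a1b transcripts and 74.3% of those of Bcl2a1d also occur in another Bcl2a1 copy. How the counting split such reads was not given in the sources used here, so the values of Bcl2a1b and Bcl2a1d are uncertain as separate genes. The 120 bases before the annotated starts are printed to show how alike the copies are (RefSeq sequence, GRCm38.p6; starts from GENCODE vM21). Lower case marks runs of at least 12 bases that the copies share and capitals mark the bases outside such runs. Bcl2a1b lies at chr9:89199089-89199208, plus strand, and Bcl2a1d at chr9:88731915-88732034, minus strand.
Bcl2a1b: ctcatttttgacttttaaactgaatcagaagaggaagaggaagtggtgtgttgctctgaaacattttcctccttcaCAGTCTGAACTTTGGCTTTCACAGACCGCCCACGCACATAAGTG
Bcl2a1d: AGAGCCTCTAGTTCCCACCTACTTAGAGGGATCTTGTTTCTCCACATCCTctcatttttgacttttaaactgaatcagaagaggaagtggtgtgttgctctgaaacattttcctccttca
In these windows 76 of 120 bases of Bcl2a1b (63.3%) and 70 of 120 of Bcl2a1d (58.3%) fall in shared runs, and the window of Bcl2a1a, another copy on chromosome 9, matches that of Bcl2a1b at 119 of 120 positions.

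Bcl2l11 and Bmf, the 2 members that fell in YFP+ pre-GCB-like cells, are shown with the same window, at chr2:128125918-128126037, plus strand for Bcl2l11 and at chr2:118549688-118549807, minus strand for Bmf. Capitals mark CCAAT on the opposite strand, written ATTGG.
Bcl2l11: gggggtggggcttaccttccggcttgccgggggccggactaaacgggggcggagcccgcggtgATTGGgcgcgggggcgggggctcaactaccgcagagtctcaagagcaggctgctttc
Bmf: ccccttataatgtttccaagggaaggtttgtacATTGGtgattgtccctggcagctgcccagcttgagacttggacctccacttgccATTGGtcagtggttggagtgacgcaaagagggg
The letters searched on both strands were TGTTTAC (FOXO), TTCNNNGAA (STAT), CCAAT and TATAAA. Bcl2l11 held 1 match to CCAAT, 57 to 53 bases before the start, and Bmf held 2, at 87 to 83 and 33 to 29 bases. CCAAT occurred in 21.3% of 32851 RefSeq windows of this length, TGTTTAC in 1.36%, TTCNNNGAA in 3.15% and TATAAA in 6.34%, and the last 3 were not found in either window. A match is a description of these letters and not a binding site.

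Across 16 classes of control total splenocytes the members had distinct profiles, given here as levels with no test because the classes come from clusters of the same cells. Bcl2 was highest in gamma delta T-like, Treg-like, NKT or NK-like and naive T-like cells and lowest in GCB-like cells, and effector CD4 T-like and cycling T-like cells were at places 12 and 15 of the 16. It stood at 734 and 594 CPM in gamma delta T-like, 746 and 395 CPM in naive CD4 T-like and 347 and 196 CPM in naive B-like cells. In pre-GCB-like cells it was 230.2 and 146 CPM, and in GCB-like cells 36.9 and 24.4 CPM. The 13 highest classes overlapped with their neighbours, and the steps below pre-GCB-like cells and above GCB-like cells were the ones where neighbouring library ranges did not touch. Mcl1, which blocks Bak and is turned over quickly as a protein, varied least, 3.06-fold between the highest and the lowest class mean. It was highest in transitional B-like cells, at 367 and 399 CPM, and in B1-like cells, at 358 and 378 CPM.

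The A1 genes, known as targets of NF-κB in activated lymphocytes, had the 2 highest of these 16 class means in pre-GCB-like and T-bet+ B-like cells. TFH-like cells are not among the 16, because the control total library of batch 2 held only 19 of them. In batch 1, Bcl2a1a, Bcl2a1b and Bcl2a1d together were higher in TFH-like cells, at 669 CPM. They were at 494 CPM in pre-GCB-like and 341 CPM in T-bet+ B-like cells of that library. For batch 2 this sum was not made in TFH-like cells. Bcl2a1b stood at 336 and 448 CPM in pre-GCB-like and 231 and 488 CPM in T-bet+ B-like cells, against 91.0 and 164 CPM in naive B-like cells. Bcl2a1d was 158 and 200.1, 109.7 and 292 and 25.8 and 45.1 CPM in the same classes. MZB-like cells, at 228 and 376 CPM of Bcl2a1b, overlapped with T-bet+ B-like cells, and gamma delta T-like cells came next for Bcl2a1d, at 102 and 115 CPM. Both genes were low in plasma cell-like and naive T-like cells. Bak1, an effector that permeabilises the membrane, was highest in GCB-like cells (60.3 and 77.0 CPM), and no neighbouring pair of classes was apart for it. Bid, which links death receptors to mitochondria, was also highest there, with 67.9 and 57.2 CPM in GCB-like and 54.5 and 56.0 CPM in pre-GCB-like cells, both apart from the next class. GCB-like cells thus combined the lowest Bcl2 with the highest Bak1 and Bid among these classes.

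The other BH3-only members had their own places. Bcl2l11 was highest in NKT or NK-like cells (264 and 158 CPM) and lowest in interferon-response B-like cells (54.3 and 38.0 CPM), with no neighbours apart. Pmaip1 was 30.7 and 35.7 CPM in B1-like and 33.0 and 28.1 CPM in naive B-like cells, and 2.19 and 1.30 CPM in naive CD4 T-like cells, the lowest class. Bmf was highest in transitional B-like cells (18.8 and 16.3 CPM), and no UMI of it was counted in cycling T-like and gamma delta T-like cells. Batch moved several members: Bcl2 and Bcl2l11 were higher in batch 1 in 15 of 16 classes, Bcl2a1b and Bcl2a1d were higher in batch 2 in 15 of 16, and Bak1 in all 16. Summed over classes, Bcl2 was 1.63 times and Bcl2l11 1.68 times as high in batch 1, and Bcl2a1b 0.634 times.

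**Figure D1:**
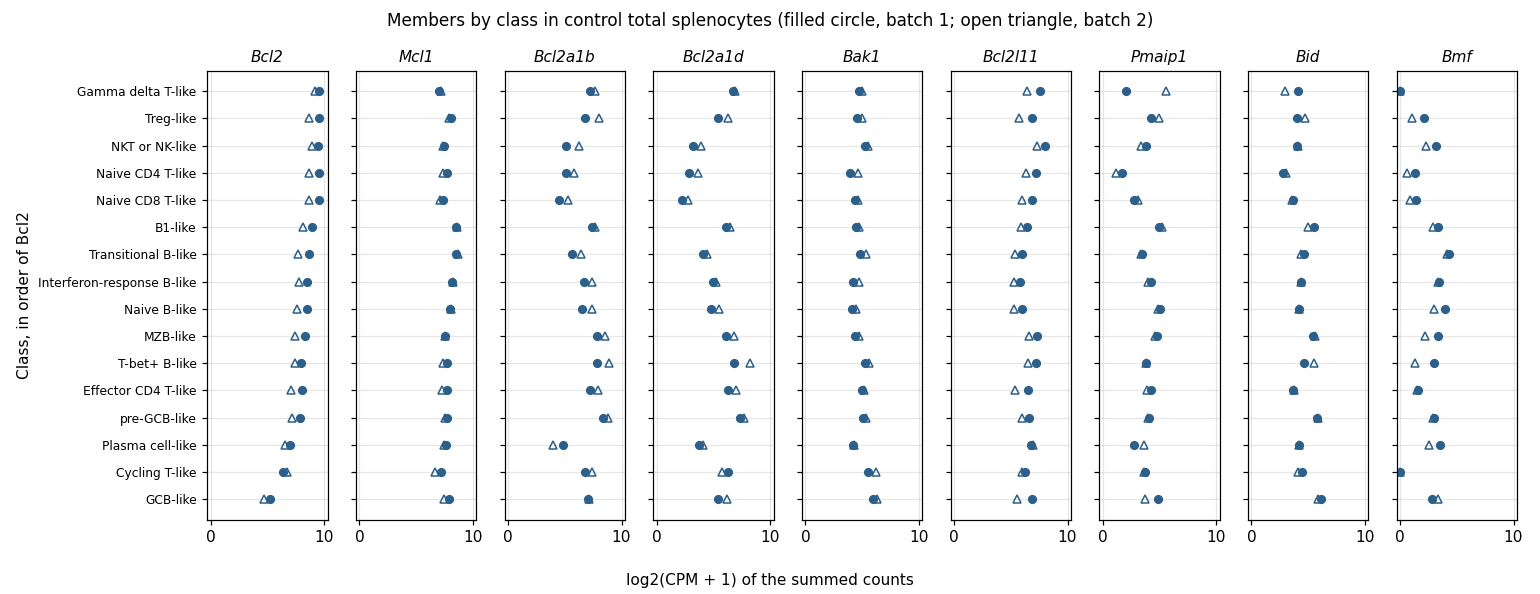
Levels of the 9 members, as log2(CPM + 1), in 16 classes of control total splenocytes, with 1 point for each of the 2 libraries. Classes run from the highest mean Bcl2 (gamma delta T-like cells) to the lowest (GCB-like cells), where Bak1 and Bid are at their highest.

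Over 101 sums of a class in a library with at least 50 cells, spread over 19 classes and all 8 libraries, Bcl2a1b and Bcl2a1d had a Pearson r of 0.956, the highest of all 36 pairs. These sums share libraries and mice, and near-identical copies share reads. Of 5618 genes compared, the 3 most like Bcl2 in pattern were Pdcd4 (r = 0.928), Usp3 and Svil. Mir155hg, the host transcript of miR-155, was most like both Bcl2a1b (r = 0.832, before Cyfip1 and Gm47957) and Bcl2a1d (r = 0.862, before Il9r and Casp4). For Mcl1 they were Dgkd (r = 0.747), Trim25 and Inpp5a, and for Bak1 Oaz1 (r = 0.894), Smdt1 and Ppp1ca. Among BH3-only members, Bcl2l11 had Ttc7b (r = 0.603), Prf1 and Pik3r5, Pmaip1 had Cyfip1 (r = 0.784), Reep3 and Pdcd1lg2, Bid had Marcksl1 (r = 0.796), Siah2 and Hpse, and Bmf had Irs2 (r = 0.771), Hdac9 and Far1. Bcl2 ran opposite to Bak1 (r = -0.58) and Bid (-0.57).

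The first comparison asked how the members differed between cKO and control in pre-GCB-like cells, activated B cells that have not yet become germinal centre B cells. In YFP+ pre-GCB-like cells the BH3-only genes Bcl2l11 and Bmf fell in cKO. Bcl2l11 stood at 97.8 and 80.1 CPM in control and 32.0 and 16.8 CPM in cKO libraries, so every cKO library was below every control library. Its log2 fold change, cKO over control, was -1.78 (SE 0.27, adjusted p = 0.00534) by edgeR's quasi-likelihood test with Benjamini-Hochberg adjustment over all genes of the class, as for each adjusted p below unless another tool is named. Bmf stood at 5.84 and 5.52 CPM in control and 1.19 and 0.286 CPM in cKO, with a log2 fold change of -2.88 (SE 0.61, adjusted p = 0.0193). Of the 12839 genes tested, 9.36% were called, and 4.94% were called lower in cKO. So 2 of 9 members were called, both lower, and DESeq2 called 4, all lower, where it called 10.4% of genes. The libraries held 319 and 346 control and 1901 and 1848 cKO cells.

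The other 7 members did not pass the test. Both A1 genes were lower in every cKO library: Bcl2a1b was 358 and 601 CPM in control and 274 and 253 CPM in cKO (-0.78, SE 0.28, adjusted p = 0.111). Bcl2a1d was 232 and 361 against 168 and 149 CPM (-0.82, SE 0.26, adjusted p = 0.0808). Bak1 was 42.1 and 48.7 against 26.3 and 30.9 CPM (-0.56, SE 0.21, adjusted p = 0.129). Pmaip1 lay the other way, at 16.8 and 22.4 CPM in control and 26.2 and 25.1 CPM in cKO (0.50, SE 0.22, adjusted p = 0.204). Bcl2, Mcl1 and Bid had log2 fold changes of -0.24, -0.030 and -0.25, with adjusted p of 0.613, 0.946 and 0.47. Over the fits that leave out 1 library, Bcl2l11 ran from -2.25 to -1.42 and Bmf from -4.12 to -2.19. In these fits Bcl2a1b ran from -1.14 to -0.27, Bcl2a1d from -1.14 to -0.37 and Pmaip1 from 0.25 to 0.79. The groups did not overlap for 7 members, and for 55.2% of all genes.

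With batch as a block, 5 members were called and 30.8% of genes: Bcl2l11 (-1.82), Bmf (-2.99), Bcl2a1d (-0.77, adjusted p = 0.00901) and Bak1 (-0.57, adjusted p = 5.9e-04) lower, and Pmaip1 (0.50, adjusted p = 0.0176) higher. This fit leaves 1 residual degree of freedom per gene and takes most of its spread estimate from the other genes. The class is not made of the same clusters in both genotypes: 58.8% of cKO YFP+ but 4.96% of control YFP+ pre-GCB-like cells were in cluster B8, while cluster B6 held 22.9% and 72.6%. In cluster B6, Bcl2l11 was 139.8 and 89.5 CPM in control and 76.2 and 45.7 CPM in cKO, and Bmf 8.53 and 6.15 and 2.72 and 1.63 CPM. Within that cluster alone neither passed the test (0.252% of genes called), with log2 fold changes of -0.82 (SE 0.30, adjusted p = 0.564) and -1.60 (SE 0.51, adjusted p = 0.431). With the block added (7.03% of genes called), Bcl2l11 was called there (-0.83, SE 0.16, adjusted p = 1.4e-05) and Bmf was not (-1.63, SE 0.59, adjusted p = 0.0709). Without the block, Pmaip1 was 0.50 in the whole class and -0.19 in cluster B6, and was called in neither. Both A1 genes and Bcl2 were called lower in cluster B6 with the block, Bcl2a1b at -0.90 (SE 0.14, adjusted p = 1.2e-08), Bcl2a1d at -0.99 (SE 0.14, adjusted p = 1.9e-10) and Bcl2 at -0.50 (SE 0.15, adjusted p = 0.0132). Bcl2a1b was 495 and 723 CPM in control and 247 and 378 CPM in cKO cells of that cluster. In cluster B15, whose cells cycle, Bcl2l11 was 69.5 and 77.7 CPM in control and 22.1 and 13.7 CPM in cKO, and in cluster B8 it was 28.6 and 15.2 CPM in cKO.

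**Figure D2:**
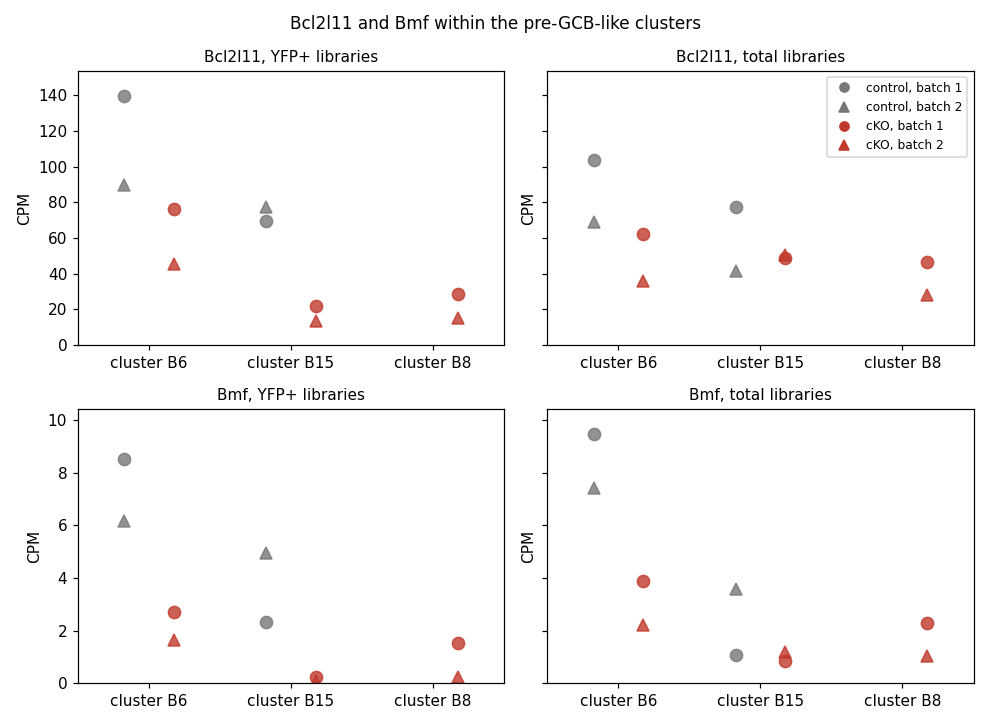
Bcl2l11 (top) and Bmf (bottom) in CPM within the 3 pre-GCB-like clusters, in YFP+ (left) and total (right) libraries, with 1 point per library that held at least 20 cells of the cluster. In YFP+ libraries every cKO point lies below every control point of the same cluster, and cluster B8 has no control point.

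Cells of this class were deeper in cKO, with median UMIs per cell of 8017 and 5591 in control and 10900.0 and 14928 in cKO libraries. Summed T cell markers (6 genes) were 0.690 to 3.30 CPM in control and 2.86 to 6.05 CPM in cKO, summed B cell markers (6 genes) 4289 to 4578 and 3139 to 3370.3 CPM, and summed dissociation and heat shock genes (11 genes) 1285 to 2431 and 1965 to 2462 CPM. Their part in the result was not tested. When each cell took the class of its nearest control cells, Bcl2l11 (-1.61, SE 0.38, adjusted p = 0.0412) and Bmf (-2.93, SE 0.67, adjusted p = 0.0221) were still called, with 6.34% of genes. In total splenocytes, pre-GCB-like cells gave Bcl2l11 95.2 and 62.7 CPM in control and 57.3 and 35.4 CPM in cKO (-0.73, SE 0.27, adjusted p = 0.653), and Bmf 7.09 and 6.30 and 3.07 and 1.73 CPM (-1.44, SE 0.40, adjusted p = 0.28). Log2 fold changes of the other members were Bcl2 (-0.53), Mcl1 (0.015), Bcl2a1b (-0.23), Bcl2a1d (-0.16), Bak1 (-0.045), Pmaip1 (-0.060) and Bid (-0.32), and of the other family genes Bcl2l1 (0.39), Bcl2l2 (0.063), Bax (0.18), Bad (0.079) and Bbc3 (-0.017). No member was called there, with 0.444% of 10806 genes called, and DESeq2, which called 0.854% of genes, called none. With the block, Bcl2, Bcl2l11 and Bmf were called lower, at -0.56, -0.73 and -1.45, with 8.77% of genes called.

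Other genes of the death pathway differed in YFP+ pre-GCB-like cells. Of 11 further family genes, 7 were tested, 2 rose and 1 fell, where 9.36% of all genes were called. Their median log2 fold change was 0.73 against -0.003 over all genes, and DESeq2, which tested 9, gave a median of -0.11 with 3 higher and none lower. Bcl2l1, which encodes anti-apoptotic Bcl-xL, rose from 18.5 and 16.2 CPM to 36.7 and 30.3 CPM (1.04, SE 0.20, adjusted p = 0.0135). Bbc3, which encodes the BH3-only protein Puma, rose from 3.30 and 8.97 CPM to 18.1 and 20.8 CPM (1.83, SE 0.38, adjusted p = 0.0181). BH3-only genes thus lay in both directions in the same cells. Bcl2a1a, the third A1 copy, fell (-1.64, SE 0.43, adjusted p = 0.0471) from very low levels, a call that DESeq2 did not make. The effector Bax was 176 and 260.3 CPM in control and 312 and 368 CPM in cKO (0.73, SE 0.26, adjusted p = 0.111) and was called with the block (adjusted p = 6.7e-10). Bad, Bcl2l2 and Bik did not pass, and Bcl2a1c, Bcl2l10, Hrk and Bok were too low to test.

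The same 9.36% stands beside the counts of the other lists. Among 7 tested death receptor genes, whose median log2 fold change was -0.099, 3 rose: the TRAIL receptor Tnfrsf10b, from 1.52 and 0.690 to 14.1 and 14.6 CPM (3.73, SE 0.36, adjusted p = 6.7e-04), Fas (1.49, SE 0.24, adjusted p = 0.00659) and Cflar, which encodes the caspase-8 inhibitor c-FLIP (0.95, SE 0.19, adjusted p = 0.0153). Fas and Bcl6 also served as markers of the GCB-like class. Of 6 genes of Mcl1 turnover 1 rose, Fbxw7 (1.33). Of 13 transcription factors that act upstream of the family, 3 rose and 2 fell. Stat5a rose from 22.3 and 16.6 to 85.3 and 93.3 CPM (2.29, SE 0.22, adjusted p = 6.1e-04), Atf4 by 1.71 and Bcl6 by 0.99, while Rel (-0.82) and Ddit3 (-0.97) were lower.

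The second comparison took naive B-like cells, in which Bcl2 is a main survival gene. No member passed in YFP+ naive B-like cells, where 0.592% of 12666 genes were called. DESeq2, with 2.34% of genes called, called 1, Bmf (-2.18, SE 0.48, adjusted p = 6.2e-04). Bcl2 was 313 and 177 CPM in control and 143 and 71.3 CPM in cKO, so cKO libraries were below both control libraries (-1.06, SE 0.38, adjusted p = 0.362). Bmf was 14.3 and 9.13 against 3.53 and 1.21 CPM (-2.20, SE 0.47, adjusted p = 0.103). Both were called lower with batch as a block, Bcl2 at -1.07 (SE 0.10, adjusted p = 1.8e-04) and Bmf at -2.27 (SE 0.27, adjusted p = 6.3e-04), in a fit that called 15.9% of genes. Over the 4 fits that leave out 1 library, Bmf ran from -3.07 to -1.65, Bcl2 from -1.57 to -0.66, Bcl2a1d from -1.51 to -0.32 and Pmaip1 from -1.17 to -0.43. Groups were apart for 6 members and for 39.0% of all genes.

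Pmaip1 was 38.9 and 60.2 CPM in control and 27.4 and 22.7 CPM in cKO YFP+ naive B-like cells (-0.85, SE 0.28, adjusted p = 0.319), Bcl2a1b 134 and 296 against 102 and 118 CPM and Bcl2a1d 49.98 and 104.7 against 36.7 and 32.3 CPM. For the A1 genes the gap came mostly from batch 2. Mcl1, Bak1, Bcl2l11 and Bid had log2 fold changes of -0.17, 0.43, -0.31 and 0.16. Of the 5 other family genes tested (Bcl2l1, Bcl2l2, Bax, Bad and Bbc3) none passed, and Bbc3 (0.94) and Bax (0.49) were called higher with the block.

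In total splenocytes the pattern of values in naive B-like cells was alike, and again no member passed, where 0.111% of 12657 genes were called. DESeq2, with 1.43% of genes called, called Bmf (-1.84, SE 0.52, adjusted p = 0.0316). Bcl2 was 347 and 196 CPM in control and 170.0 and 95.9 CPM in cKO (-0.94, SE 0.36, adjusted p = 0.644), at 0.490 of control in batch 1 and 0.489 in batch 2. Bmf was 14.6 and 7.02 against 4.55 and 1.18 CPM (-1.86, SE 0.59, adjusted p = 0.469). The other members did not differ past the threshold with or without the block, Mcl1 (0.00870), Bcl2l11 (-0.18) and Bid (0.00469), nor did the other family genes tested, Bcl2l1 (-0.56), Bcl2l2 (-0.35), Bax (0.36), Bad (0.18) and Bbc3 (0.24), except that Bax was called higher with it. With the block, which called 17.0% of genes, 5 members were called lower: Bcl2 (-0.93), Bmf (-1.93), Bcl2a1d (-0.94), Bcl2a1b (-0.65) and Pmaip1 (-0.67). Bak1 was called higher (0.35), but was -0.53 in cluster B1 with the block and not called there (adjusted p = 0.474). Over the fits that leave out 1 library, Bcl2 ran from -1.34 to -0.50, Bmf from -3.03 to -1.19 and Bcl2a1d from -1.34 to -0.48. For no member was the genotype effect on naive B-like cells called different between the sorts, where 0 of 13144 genes (0.0%) were called, and for Bcl2 it was -0.12 (SE 0.61, adjusted p = 1.00). With the pool of mice as a block, 2.62% of genes and no member were called, and that for Bcl2 was -0.14 (SE 0.08, adjusted p = 0.409).

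The naive B-like cells of the genotypes lay in different clusters: cluster B1 held 96.7% of control YFP+ and 98.8% of control total naive B-like cells, but 1.36% and 7.47% of cKO cells, which lay in clusters B0 and B2. Within cluster B1 alone no member was called in either sort without the block (0.0784% of genes in YFP+ and 0.0524% in total cells), and with it Bcl2a1b was called in YFP+ cells, where 0.392% of genes were (-0.95, SE 0.19, adjusted p = 0.00942). Bcl2 in cluster B1 was 313 and 177 CPM in control YFP+ and 209 and 161 CPM in cKO YFP+ cells. The log2 fold changes there were smaller than in the whole class, -0.36 for Bcl2 and -0.19 for Bmf in YFP+ and -0.48 and -1.54 in total cells. Bmf in cluster B1 was 14.9997 and 9.19 CPM in control and 12.3 and 7.65 CPM in cKO YFP+ cells, the last 2 from 5 and 2 UMIs. In cluster B2, with 88 and 45 control YFP+ cells, Bcl2 was 314 and 172 CPM in control and 155 and 79.2 CPM in cKO YFP+ cells. Median UMIs per cell were 3954 and 2791 in control and 5207 and 6014 in cKO YFP+ naive B-like cells. Summed myeloid markers (7 genes) were 118 to 174 CPM in control and 69.8 to 77.8 CPM in cKO, and dissociation genes 2568 to 4988 and 2942 to 3386 CPM. Their part in these values was not tested.

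**Figure D3:**
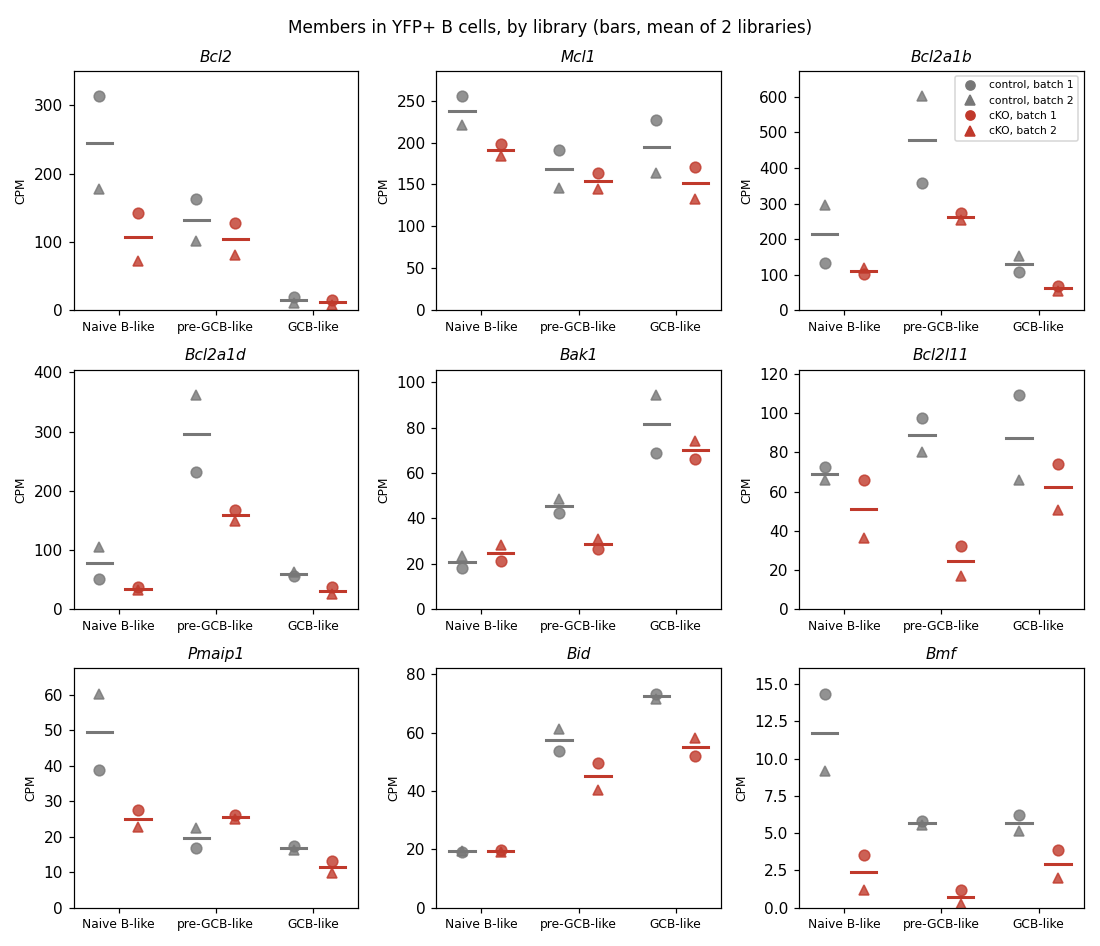
CPM of the 9 members in naive B-like, pre-GCB-like and GCB-like cells of YFP+ libraries, with 1 point per library and a bar at the mean of the 2 libraries of a genotype. Bcl2l11 and Bmf are far lower in cKO than in control pre-GCB-like cells, and Bcl2 is lower in GCB-like cells of both genotypes than in the other 2 classes.

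In YFP+ GCB-like cells no member was called, with 1.21% of 12164 genes called, and Bcl2a1b was called by DESeq2 (-1.09, SE 0.29, adjusted p = 0.0115), which called 1.99% of genes. Bcl2a1b was 108 and 152 CPM in control and 68.0 and 53.8 CPM in cKO (-1.08, SE 0.26, adjusted p = 0.128). Groups were apart for it, for 5 members in all and for 35.1% of all genes. Bcl2a1d was 55.9 and 63.2 against 37.6 and 24.8 CPM (-0.90, SE 0.24, adjusted p = 0.173). With the block, which called 8.88% of genes, both were called lower, Bcl2a1b at -1.03 (SE 0.16, adjusted p = 1.9e-08) and Bcl2a1d at -0.88 (SE 0.16, adjusted p = 1.3e-06). Over the fits that leave out 1 library, Bcl2a1b ran from -1.36 to -0.70, Bcl2a1d from -1.19 to -0.67 and Bcl2l11 from -0.69 to -0.12. Bcl2 was 19.9 and 10.2 CPM in control and 15.6 and 8.11 CPM in cKO, Bcl2l11 109 and 65.8 against 74.0 and 50.6 CPM and Bmf 6.20 and 5.14 against 3.85 and 1.97 CPM. Mcl1, on which these cells are known to depend, was 226 and 164 against 171 and 132 CPM (-0.32, SE 0.23, adjusted p = 0.898). Bak1, Pmaip1 and Bid had log2 fold changes of -0.20, -0.50 and -0.36. None of 7 other family genes (Bcl2l1, Bcl2l2, Bcl2a1a, Bax, Bad, Bik and Bbc3) was called. Fbxw7, which marks Mcl1 for degradation, rose (1.26, SE 0.23, adjusted p = 0.0364), as did the early response gene Egr1 (1.24, SE 0.20, adjusted p = 0.0225), the 1 call among 9 tested dissociation and heat shock genes. With the block, 4 of these 9 were called higher and 1 lower, and their part in the values of the A1 genes was not tested.

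This result depended on how the class was drawn. When each cell took the class of its nearest control cells, the sign of 4 members turned in YFP+ GCB-like cells, with Bcl2 at 2.25 (SE 0.28, adjusted p = 7.2e-04) and Bcl2a1d at 0.80 (SE 0.22, adjusted p = 0.0275), and Bcl2l11 (-1.63), Bmf (-2.38) and Bak1 (-0.96) were called lower, with 25.7% of genes called. In the few GCB-like cells of total libraries (62 and 49 in control, 184 and 236 in cKO) Bcl2a1b fell, from 135 and 138 CPM to 59.4 and 61.0 CPM (-1.14, SE 0.22, adjusted p = 0.0168), 1 of 9 members where 1.85% of 9533 genes were called, and DESeq2, with 1.08% of genes, called the same one. The other log2 fold changes were those of Mcl1 (-0.26), Bak1 (0.11), Bcl2l11 (-0.011), Pmaip1 (-0.49), Bid (-0.34) and Bmf (-1.07), and of the other family genes tested Bcl2l1 (0.23), Bax (0.41), Bad (0.34) and Bbc3 (0.58), none of them called. Bcl2 (-1.08) and Bcl2a1d (-1.15) were called lower too with the block, which called 4.84% of genes. Over the fits that leave out 1 library, Bcl2 ran from -1.32 to -0.81 and Bcl2a1d from -1.58 to -0.65. The call of Bcl2a1b was lost without cKO library 1 (adjusted p = 0.407) and without cKO library 2 (adjusted p = 0.426), while its log2 fold change was -1.20 to -1.09 over the 4 fits that leave out 1 library. In YFP+ plasma cell-like cells the A1 genes lay the other way, Bcl2a1b at 31.3 and 42.8 CPM in control and 90.6 and 64.0 CPM in cKO (1.07, SE 0.28, adjusted p = 0.124). No member was called there, where 1.05% of 11471 genes were, and DESeq2, which called 1.1% of genes, called none. The log2 fold change of Bcl2a1b ran from 0.84 to 1.34 over the fits that leave out 1 library. The other members had log2 fold changes of Bcl2 (-0.025), Mcl1 (-0.18), Bak1 (-0.32), Bcl2l11 (0.29), Pmaip1 (-0.15), Bid (-0.16) and Bmf (-0.62), and the other family genes of Bcl2l1 (0.57), Bcl2l2 (-0.12), Bcl2a1a (-0.043), Bad (-0.045), Bik (0.46) and Bbc3 (0.33), none called with or without the block. Bax (0.67) was called higher with the block. With that term, which called 3.94% of genes, both A1 genes were called higher, at 1.09 and 0.96.

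CD4 T cells were compared in total libraries, where they are not a target of the Cre. In all CD4 T cells together, Pmaip1 and Bcl2a1d rose in cKO. Pmaip1 stood at 7.16 and 6.63 CPM in control and 37.7 and 45.3 CPM in cKO (2.48, SE 0.23, adjusted p = 0.00626), and Bcl2a1d at 26.0 and 39.5 and 115 and 204 CPM (2.17, SE 0.37, adjusted p = 0.0289). Bcl2a1b was 72.4 and 113 against 232 and 391 CPM (1.63, SE 0.37, adjusted p = 0.0688) and did not pass. Over the fits that leave out 1 library it ran from 1.21 to 2.01. So 2 of 9 members were called, both higher, where 3.41% of 12107 genes were called and 3.21% were called higher. With the block, which called 28.8% of genes, 7 were called, and Bcl2 (-0.34) and Bcl2l11 (-0.37) were the lower ones among them. Bcl2l1 (1.23, SE 0.20, adjusted p = 0.0246) and Bcl2a1a rose too, and Jun fell (-1.41, SE 0.29, adjusted p = 0.0486). Of 9 tested dissociation and heat shock genes, Jun among them, 7 lay higher in cKO, with a median log2 fold change of 0.70, and with the block 5 were called higher and 2 lower. Their 11 genes summed to 2369 to 3681 CPM in control and 3615 to 4636 CPM in cKO, and their part in the result was not tested. The members not yet given had log2 fold changes of Mcl1 (-0.23), Bak1 (0.55), Bid (0.59) and Bmf (0.20), and the family genes that did not pass of Bcl2l2 (1.11), Bax (0.40), Bad (0.57), Bik (0.61) and Bbc3 (-0.34), of which Bax and Bad were called higher and Bbc3 lower with the block. In YFP+ libraries, which held few CD4 T cells, 2 of 6 tested members were called where 0.972% of 6378 genes were, Bcl2a1b and Bcl2a1d, both higher. These libraries held 173 and 31 control and 193 and 20 cKO CD4 T cells. TFH-like cells numbered 7 in control and 54 in cKO YFP+ libraries, and their part in these calls was not tested.

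The make-up of the CD4 T cells differed between the genotypes. TFH-like cells numbered 43 and 19 of 1328 and 1294 CD4 T cells in control libraries and 387 and 687 of 1404 and 1925 in cKO libraries. Naive CD4 T-like cells numbered 971 and 912 in control and 584 and 570 in cKO. Treg-like cells numbered 179 and 172 in control and 332 and 536 in cKO, and effector CD4 T-like cells 135 and 191 in control and 101 and 132 in cKO. TFH-like cells had far more A1 than naive CD4 T-like cells in both genotypes: Bcl2a1d was 210.5 and 236 CPM in control and 258 and 365 CPM in cKO TFH-like cells, and 5.99 and 11.1 and 6.13 and 11.8 CPM in naive CD4 T-like cells. The part of this make-up in the values of all CD4 T cells was not tested beyond the comparisons within subsets.

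The subsets were also compared one by one. In naive CD4 T-like cells no member was called, with 0.106% of 10387 genes called, 0 members at an unadjusted p under 0.05 and 0 by DESeq2, which called 0.262%. Bcl2 was 746 and 395 CPM in control and 788 and 718 CPM in cKO (0.46, SE 0.34, adjusted p = 0.999), and Bcl2l11 148 and 81.4 against 182 and 141 CPM (0.56, SE 0.32, adjusted p = 0.999), both with overlapping groups. With the block, which called 8.94% of genes, Bcl2 (0.52), Bcl2l11 (0.59) and Mcl1 (0.35) were called higher and Bcl2a1b (-0.47) lower. In the same fit 5 of 8 tested dissociation and heat shock genes were called lower and 0 higher, with a median of -0.42, and their part in these values was not tested. Log2 fold changes of the other members without the block were Bak1 (0.30), Bcl2a1d (0.15), Pmaip1 (0.57) and Bid (0.31), Bmf was too low to test, and of the other family genes Bcl2l1 (1.48) was called higher with the block and Bax (0.16), Bad (-0.46) and Bbc3 (-0.062) were not called. Control cells of this class lay in cluster T0 (97.9%) and cKO cells mostly in cluster T4 (74.7%), and within cluster T0 no member was called with or without the block (1.58% and 0.0505% of genes).

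In TFH-like cells, admitted with at least 15 cells per library after it was seen that 1 control library held 19, Pmaip1 was 29.3 and 0 CPM in control and 76.0 and 73.0 CPM in cKO (1.91, SE 0.53, adjusted p = 0.132). It was called with the block (1.93, SE 0.43, adjusted p = 6.2e-04), where 2.65% of genes were. Without it no member was called, against 0.584% of 9423 genes, and 0 by DESeq2, which called 0.47%. The control value rests on 43 and 19 cells. Over the fits that leave out 1 library Pmaip1 ran from 1.41 to 10.74. The highest value came without control library 1, where the control library that is left has no UMI of it and the fitted size is no measure. The other members tested in TFH-like cells, Bcl2 (0.090), Mcl1 (-0.46), Bcl2a1b (0.31), Bcl2a1d (0.57), Bak1 (0.090), Bcl2l11 (0.26) and Bid (0.26), and the family genes, Bcl2l1 (0.20), Bax (0.34), Bad (0.46) and Bbc3 (1.52), and Bcl2a1a, with 0 UMIs in control library 1, were not called with or without the block. In Treg-like cells no member was called, where 0.88% of 9320 genes were, and 2 were called by DESeq2, Bcl2 (-1.59) and Bcl2a1d (1.36), with 1.42% of genes. Bcl2 was 757 and 402 CPM in control and 269 and 128 CPM in cKO Treg-like cells (-1.60, SE 0.42, adjusted p = 0.135), and Pmaip1 18.6 and 30.05 against 58.8 and 53.9 CPM (1.19, SE 0.30, adjusted p = 0.121). Over the fits that leave out 1 library, Bcl2 ran from -2.23 to -1.05, Bcl2a1b from 0.61 to 1.77, Bcl2a1d from 0.97 to 1.82 and Pmaip1 from 0.88 to 1.53. Control cells lay mostly in cluster T10 (76.9%) and cKO cells in cluster T5 (89.4%). With the block, which called 16.8% of genes, Bcl2 (-1.61), Bcl2l11 and Mcl1 were called lower and Bcl2a1b, Bcl2a1d and Pmaip1 (1.19) higher. In the same fit 8 of 9 tested dissociation and heat shock genes were called higher and 1 lower, with a median of 0.75, and the 11 genes summed to 3209 to 4519.7 CPM in control and 5100.3 to 6653 CPM in cKO Treg-like cells. Their part in the result was not tested. Log2 fold changes of the members not yet given were Mcl1 (-0.44), Bcl2a1b (1.08), Bcl2a1d (1.35), Bcl2l11 (-0.64), Bak1 (0.55) and Bid (-0.046) without the block, and of the other family genes, Bcl2l1 (0.64), Bax (0.23), Bad (0.59) and Bbc3 (-0.41), Bcl2l1 was called higher with the block. In all CD8 T cells no member was called with or without the block, with 4.47% and 0.0896% of genes called. DESeq2, which called 0.493% of genes, called 0 members there. Naive CD8 T-like cells numbered 1748 in control and 237 in cKO total libraries, and memory CD8 T-like cells 37 and 970. The part of this make-up in these values was not tested.

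**Figure D4:**
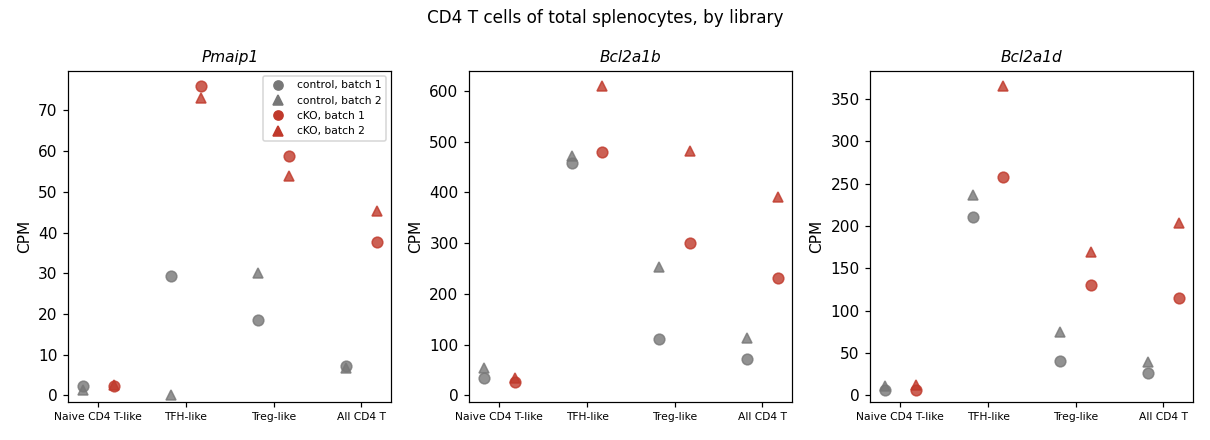
CPM of Pmaip1, Bcl2a1b and Bcl2a1d in naive CD4 T-like, TFH-like, Treg-like and all CD4 T cells of total libraries, with 1 point per library. The cKO points lie above the control points in TFH-like, Treg-like and all CD4 T cells, and near the control points in naive CD4 T-like cells.

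The sort itself was compared within each genotype, as YFP+ over total cells of a class. In naive B-like cells 0 genes (0.0%) were called in either genotype without the block. With it, 6.44% of genes and 4 members were called in control, and 25.3% of genes and 8 members in cKO. Bcl2a1d was higher in YFP+ cells by 1.14 (SE 0.09, adjusted p = 1.7e-37) in control and by 1.08 (SE 0.08, adjusted p = 1.9e-06) in cKO, Pmaip1 by 0.72 (SE 0.15, adjusted p = 0.00478) and by 0.54 (SE 0.07, adjusted p = 5.7e-05). Bcl2a1b (0.75 and 0.65) and Bcl2l11 (0.55 and 0.37) were called higher in YFP+ cells of both genotypes, and in cKO also Bak1 (0.22) and Bid (0.31), while Bcl2 (-0.27) and Mcl1 (-0.25) were called lower in cKO. YFP and total libraries of a pool share mice, so the block is the pool. In cKO pre-GCB-like cells Pmaip1 was higher in YFP+ cells without the block (0.95, SE 0.20, adjusted p = 0.0428), the 1 member called where 4.96% of 12936 genes were. Cluster B6 held 22.9% of cKO YFP+ and 80.1% of cKO total pre-GCB-like cells, and in it Pmaip1 was 27.9 and 14.7 CPM in YFP+ and 14.1 and 13.02 CPM in total libraries. In control pre-GCB-like cells no member was called, where 0.552% of 10323 genes were. The genotype effect in pre-GCB-like cells was compared between the sorts in the same way: 1 of 11313 genes (0.00884%) and no member was called, and with the pool of mice as a block 16.9% of genes were, Bcl2l11 (-1.06, SE 0.15, adjusted p = 4.9e-05), Bcl2a1d and Bak1 among them, each with the lower value in YFP+ cells.

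The genotype effects were also set against each other between classes of the same libraries, with the library as a block, in 5 pairs of classes chosen after the data were seen. In YFP+ cells 4 members were called between pre-GCB-like and naive B-like cells (11.2% of genes), 3 between pre-GCB-like and GCB-like cells (6.75%) and 2 between plasma cell-like and GCB-like cells (3.55%). The effect on Bcl2l11 was lower in pre-GCB-like than in naive B-like cells by -1.44 (SE 0.15, adjusted p = 2.6e-08). In total cells 5 members were called between all CD4 T and naive B-like cells (13.8%), and 2 between naive CD4 T-like and naive B-like cells (3.49%). None of these differences was tested within single clusters or with classes taken from the nearest control cells.

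**Figure D5:**
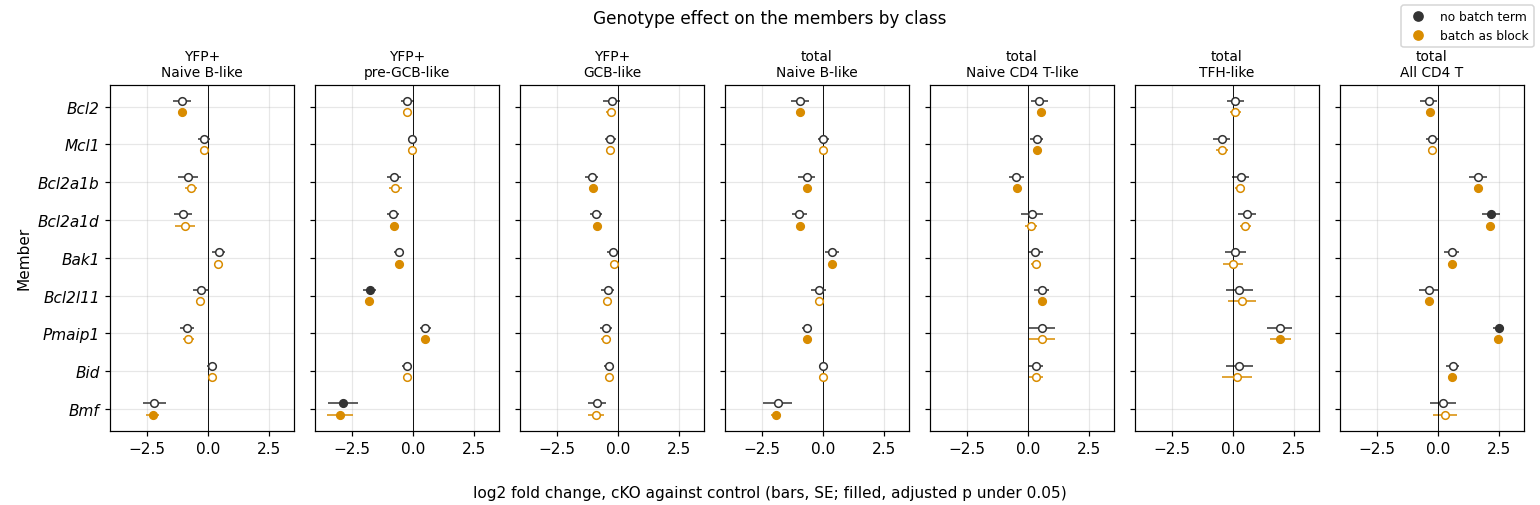
Log2 fold change (cKO over control) of the 9 members with its SE in 7 comparisons, without a batch term and with batch as a block, filled where the adjusted p is under 0.05. Without the block 4 points are filled, Bcl2l11 and Bmf in YFP+ pre-GCB-like cells and Bcl2a1d and Pmaip1 in all CD4 T cells, and the points with the block lie close to those without it while more of them are filled.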

How the data were processed

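RNA of mouse splenocytes was counted in 8 droplet libraries made with a 3′ kit. The authors deposited raw UMI counts per gene and cell, on the GRCm38 (mm10) build per the labels, made with an aligner and counter not given in the sources used here. To the barcodes was applied the filter that the study states (over 200 UMIs, over 100 genes, mitochondrial share up to 10%), which left 83704 cells. Pairs of libraries shared 51 to 102 barcodes. Doublets were kept, and removing those marked by a simulation-based caller was an alternative.

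Counts per cell were scaled to 10000 UMIs and log-transformed, and each variable gene was then centred and scaled within each batch. No other batch correction was made. Cells of all libraries were clustered together (2000 variable genes, 30 components, 20 neighbours, Leiden resolution 1) with igraph 0.11.9, and then B and T cells again. Clusters were named from marker lists, so shares and classes can differ from those of the study. Counts were summed per class and library with at least 20 cells (15 for TFH-like cells, admitted after the data were seen) and tested over all genes that passed filterByExpr with the quasi-likelihood test of edgeR 4.0.16 (TMM scaling, Benjamini-Hochberg adjustment, threshold 0.05) in R 4.3.3. DESeq2 1.42.0 was an alternative, as were size factors of its type, no filter, a Leiden resolution of 1.5, classes taken from the nearest control cells, and leaving out each library, where a lone library is assumed to vary like the other group. The script was tested on simulated data first. Fits within cluster B1, B6 or T0, all 8 libraries in 1 model, joined T cell classes, and differences of the genotype effect between classes were added after the data were seen.

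The members and gene lists were chosen with earlier results of these data known. The rule for named genes took all 9 members and the other Bcl2 family genes tested in each main comparison, genes of the other lists where they passed (1 list is not reported here), and the 3 genes of highest Pearson r per member. The labels give the replicate number as the batch, and deviations from the group means correlated at 0.172 to 0.609 within a batch over 30 comparisons, so the numbers pair the libraries. Each library is a pool of mice, so p-values measure the spread between pools of different batches.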

Additional observations from a re-analysis of the deposited data

Results flagged for a closer look

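The genotype effect of several members differed between classes of the same libraries, by edgeR's quasi-likelihood test of the difference with the library as a block. The 5 pairs of classes were picked after the data were seen, and the block removes the spread between batches, which the comparisons of genotypes without a block keep. Each value is the log2 fold change, cKO over control, in the first class less that in the second.

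In YFP+ libraries, Bcl2l11 differed between pre-GCB-like and naive B-like cells by -1.44 (SE 0.15, adjusted p = 2.6e-08), Bak1 by -0.95, Bcl2 by 0.89 and Pmaip1 by 1.36, where 11.2% of genes were called. The effect on Bcl2l11 and Bak1 was thus lower in pre-GCB-like cells, and that on Bcl2 and Pmaip1 higher. In both classes the genotypes lay mostly in different clusters, and the part of this in the differences was not tested. Within cluster B6 alone, without the block, Bcl2l11 was -0.82 and Pmaip1 -0.19. Bcl2 was 250 and 130 CPM in control and 151 and 99.1 CPM in cKO YFP+ cells of cluster B6, and its log2 fold change was -0.36 within cluster B1. Between pre-GCB-like and GCB-like cells, Bmf differed by -1.92, Bcl2l11 by -1.35 and Pmaip1 by 1.01, with 6.75% of genes called. These differences depend on how the GCB-like class was drawn. With classes taken from the nearest control cells, the effect in GCB-like cells was -2.38 for Bmf, -1.63 for Bcl2l11 and 0.43 for Pmaip1. The difference between classes was not tested with such classes. Between plasma cell-like and GCB-like cells the A1 genes differed, Bcl2a1b by 2.05 (SE 0.16, adjusted p = 1.3e-06) and Bcl2a1d by 1.77, with 3.55% of genes called. Their libraries lay in opposite directions: higher in cKO plasma cell-like cells and lower in cKO GCB-like cells. With classes taken from the nearest control cells the effect in GCB-like cells turned, to 0.32 for Bcl2a1b and 0.80 for Bcl2a1d.

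In total libraries, naive CD4 T-like less naive B-like cells gave differences for Bcl2l11 (0.77) and Bcl2a1d (1.11), with 3.49% of genes called. All CD4 T cells less naive B-like cells gave Pmaip1 3.17 (SE 0.17, adjusted p = 2.6e-08), Bcl2a1d 3.11, Bcl2a1b 2.29, Bmf 2.26 and Bcl2 0.61, with 13.8% of genes called. The subsets that make up all CD4 T cells differed in number between the genotypes, and their part in these values was not tested.

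The genotype effect in pre-GCB-like cells was also called different between sorts with the pool of mice as a block, for Bcl2l11 (-1.06, adjusted p = 4.9e-05), Bcl2a1d (-0.62, adjusted p = 0.0078) and Bak1 (-0.52, adjusted p = 0.0351), by edgeR's quasi-likelihood test, YFP+ less total. Without the block no member was called. Cluster B8 held 58.8% of cKO YFP+ but 13.1% of cKO total pre-GCB-like cells, and its part in this difference was not tested.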

How the results depend on the processing

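The fall of Bcl2l11 and Bmf in YFP+ pre-GCB-like cells kept its direction and call under the alternatives run, except within cluster B6. There neither was called without the block, and Bmf was not called with it. The rise of Pmaip1 and Bcl2a1d in all CD4 T cells also kept its direction and call, but each of these alternatives kept the subsets joined. In the fits given first for naive CD4 T-like, TFH-like and Treg-like cells, by edgeR without the block, neither gene was called. Each group held 2 libraries, and values of Bmf in small classes rest on few counts. Batch as a block changed calls in most classes, as given beside each result. In TFH-like cells the median log2 fold change of all genes was -0.17 with DESeq2. Classes taken from the nearest control cells were not run for TFH-like and joined T cell classes. The cause of each change below was not tested.

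With the replicate block (batch, or the pool of mice), genes called numbered 2020 in naive B-like cells (YFP+), 3953 in pre-GCB-like cells (YFP+), 1080 in GCB-like cells (YFP+), 2155 in naive B-like cells (total), 929 in naive CD4 T-like cells (total), 250 in TFH-like cells (total), 3489 in all CD4 T cells of total libraries and 345 in the sort difference of naive B-like cells, and members called numbered 2 in naive B-like cells (YFP+), 5 in pre-GCB-like cells (YFP+), 2 in GCB-like cells (YFP+), 6 in naive B-like cells (total), 4 in naive CD4 T-like cells (total), 1 in TFH-like cells (total) and 7 in all CD4 T cells of total libraries. With no filter on low counts, genes called numbered 562 in naive B-like cells (YFP+), 2093 in pre-GCB-like cells (YFP+), 498 in GCB-like cells (YFP+), 320 in naive B-like cells (total), 109 in naive CD4 T-like cells (total), 143 in TFH-like cells (total), 1246 in all CD4 T cells of total libraries and 19 in the sort difference of naive B-like cells. With DESeq2, genes called numbered 314 in naive B-like cells (YFP+), 247 in GCB-like cells (YFP+), 194 in naive B-like cells (total), 46 in naive CD4 T-like cells (total) and 653 in all CD4 T cells of total libraries, and members called numbered 1 in naive B-like cells (YFP+), 4 in pre-GCB-like cells (YFP+), 1 in GCB-like cells (YFP+) and 1 in naive B-like cells (total). In cluster B1 only with the replicate block, genes called numbered 40 in naive B-like cells (YFP+) and 64 in naive B-like cells (total), and members called numbered 1 in naive B-like cells (YFP+). In cluster B1 only, genes called numbered 8 in naive B-like cells (YFP+) and 6 in naive B-like cells (total). In cluster B6 only, genes called numbered 23 in pre-GCB-like cells (YFP+), and members called numbered 0 in pre-GCB-like cells (YFP+). In cluster B6 only with the replicate block, genes called numbered 642 in pre-GCB-like cells (YFP+), and members called numbered 4 in pre-GCB-like cells (YFP+). With classes taken from the nearest control cells, genes called numbered 731 in pre-GCB-like cells (YFP+), 3426 in GCB-like cells (YFP+) and 8 in naive B-like cells (total), and members called numbered 5 in GCB-like cells (YFP+). With marked doublets removed, genes called numbered 8 in naive B-like cells (total). In cluster T0 only, genes called numbered 5 in naive CD4 T-like cells (total). In cluster T0 only with the replicate block, genes called numbered 157 in naive CD4 T-like cells (total). With all 8 libraries in 1 model, genes called numbered 658 in all CD4 T cells of total libraries. Leaving out 1 library at a time, the number of genes called ranged from 160 to 505 in naive B-like cells (YFP+), from 714 to 2142 in pre-GCB-like cells (YFP+), from 202 to 955 in GCB-like cells (YFP+), from 98 to 397 in naive B-like cells (total), from 32 to 114 in naive CD4 T-like cells (total), from 36 to 159 in TFH-like cells (total) and from 459 to 1157 in all CD4 T cells of total libraries. Leaving out 1 library at a time, the number of members called ranged from 1 to 3 in naive B-like cells (YFP+), from 2 to 4 in pre-GCB-like cells (YFP+), from 0 to 3 in GCB-like cells (YFP+), from 0 to 2 in naive B-like cells (total) and from 0 to 1 in TFH-like cells (total).

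In cluster B1 only, the sign of the log2 fold change turned for Bid in naive B-like cells (YFP+) (-0.84), Mcl1 in naive B-like cells (total) (-0.036), Bak1 in naive B-like cells (total) (-0.52), Bcl2l11 in naive B-like cells (total) (0.21) and Bid in naive B-like cells (total) (-0.25). In cluster B1 only with the replicate block, the sign of the log2 fold change turned for Bid in naive B-like cells (YFP+) (-0.84), Mcl1 in naive B-like cells (total) (-0.035), Bak1 in naive B-like cells (total) (-0.53), Bcl2l11 in naive B-like cells (total) (0.21) and Bid in naive B-like cells (total) (-0.25). With no filter on low counts, the sign of the log2 fold change turned for Mcl1 in pre-GCB-like cells (YFP+) (0.00763) and Bcl2l11 in GCB-like cells (total) (0.034). In cluster B6 only, the sign of the log2 fold change turned for Pmaip1 in pre-GCB-like cells (YFP+) (-0.19). In cluster B6 only with the replicate block, the sign of the log2 fold change turned for Pmaip1 in pre-GCB-like cells (YFP+) (-0.18). With classes taken from the nearest control cells, the sign of the log2 fold change turned for Bcl2 in GCB-like cells (YFP+) (2.25), Bcl2a1b in GCB-like cells (YFP+) (0.32), Bcl2a1d in GCB-like cells (YFP+) (0.80), Pmaip1 in GCB-like cells (YFP+) (0.43), Mcl1 in naive B-like cells (total) (-0.00623) and Bid in Treg-like cells (total) (0.017). With marked doublets removed, the sign of the log2 fold change turned for Bcl2 in GCB-like cells (YFP+) (0.23) and Bid in naive B-like cells (total) (-0.00790). With all 8 libraries in 1 model, the sign of the log2 fold change turned for Bid in naive B-like cells (total) (-0.00351). In cluster T0 only, the sign of the log2 fold change turned for Bid in naive CD4 T-like cells (total) (-0.31). In cluster T0 only with the replicate block, the sign of the log2 fold change turned for Bid in naive CD4 T-like cells (total) (-0.24). With the replicate block (batch, or the pool of mice), the sign of the log2 fold change turned for Bak1 in TFH-like cells (total) (-0.00639), Bcl2l11 in GCB-like cells (total) (0.066) and Bcl2 in plasma cell-like cells (YFP+) (0.00320). At Leiden resolution 1.5, the sign of the log2 fold change turned for Bak1 in pre-GCB-like cells (total) (0.037). Leaving out 1 library at a time, the sign turned for Bcl2 from -0.54 to 0.096 and Mcl1 from -0.13 to 0.13 in pre-GCB-like cells (YFP+). It turned for Bcl2 from -0.79 to 0.21 and Bak1 from -0.48 to 0.15 in GCB-like cells (YFP+). It turned for Mcl1 from -0.057 to 0.081, Bcl2l11 from -0.49 to 0.21 and Bid from -0.016 to 0.029 in naive B-like cells (total). It turned for Bcl2a1d from -0.47 to 0.70 and Bak1 from -0.057 to 0.75 in naive CD4 T-like cells (total). It turned for Bak1 from -0.33 to 0.40 and Bcl2l11 from -0.25 to 0.65 in TFH-like cells (total). It turned for Bcl2 from -0.77 to 0.14, Bcl2l11 from -0.82 to 0.13 and Bmf from -0.22 to 0.92 in all CD4 T cells of total libraries. It turned for Mcl1 from -0.047 to 0.085, Bcl2a1b from -0.50 to 0.055, Bcl2a1d from -0.36 to 0.082, Bak1 from -0.24 to 0.18 and Pmaip1 from -0.29 to 0.15 in pre-GCB-like cells (total). It turned for Bak1 from -0.10 to 0.33, Bcl2l11 from -0.50 to 0.73 and Pmaip1 from -0.93 to 0.20 in GCB-like cells (total). It turned for Bcl2 from -0.56 to 0.68, Bak1 from -0.64 to 0.097, Bcl2l11 from -0.19 to 0.64, Pmaip1 from -0.40 to 0.15, Bid from -0.42 to 0.16 and Bmf from -1.15 to 0.00259 in plasma cell-like cells (YFP+). It turned for Bcl2l11 from -1.12 to 0.12 and Bid from -0.36 to 0.29 in Treg-like cells (total).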

Other observations

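The 3 Bcl2a1 copies were also summed. The sum does not depend on how counted reads were split, but would miss reads left out for matching several copies. It kept the directions of Bcl2a1b and Bcl2a1d in the 3 comparisons given here. The sum was 594 and 966 CPM in control and 443 and 403 CPM in cKO YFP+ pre-GCB-like cells, 165 and 216 and 107 and 80.4 CPM in YFP+ GCB-like cells, and 98.8 and 153 and 352 and 604 CPM in all CD4 T cells of total libraries. In each of the 3, cKO libraries lay on 1 side of the control libraries, as they did for 55.2%, 35.1% and 42.2% of all genes. No test was run on the sums.

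Stat5a, a transcription factor known to act upstream of Bcl2 family genes, rose in YFP+ plasma cell-like cells as well as in pre-GCB-like cells (2.01, SE 0.29, adjusted p = 0.00362 by edgeR's quasi-likelihood test), and Fbxw7 rose in GCB-like cells of total libraries (1.75, SE 0.28, adjusted p = 0.0058).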
